A study of Homo sapiens with 8 samples.

Results

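The transcripts of 10 epithelial regulators were followed in 2 human prostate cancer cell lines: the grainyhead-like factors GRHL1, GRHL2 and GRHL3, the zinc finger repressors OVOL1 and OVOL2, the splicing regulators ESRP1 and ESRP2, the ETS factors ELF3 and EHF, and the Krüppel-like factor KLF5. They were taken by gene symbol from a deposited table of 57905 genes, and each symbol matched 1 gene. All 10 were among the 25982 genes tested, which had a mean of at least 1 TPM (a level scaled for gene length and library total) in any group. GRHL3 reached that level in PC3 TRIB1 alone, and GRHL2, OVOL1 and EHF reached it in PC3 groups alone, so the filter itself favoured a PC3 difference for these 4 genes.

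The 4 groups, with 2 libraries each, were PC3 cells given a lentivirus carrying TRIB1, PC3 cells given an empty lentivirus (control), DU145 cells given the TRIB1 lentivirus, and DU145 cells given the empty lentivirus. TRIB1 encodes a pseudokinase that acts as a scaffold for protein degradation. PC3 came from a bone metastasis and DU145 from a brain metastasis, and all groups had taken up a lentivirus. The column names of the PC3 libraries carry the tag yong, and those of every library carry the tag pre. The meaning of these tags is not stated. The labels give neither selection nor whether the replicates came from different cultures or infections. The p-values therefore measure the spread between libraries, which may be technical.

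Grainyhead-like factors bind enhancers of adhesion and junction genes and open chromatin there, and GRHL2 and the repressor ZEB1 inhibit each other's genes. OVOL proteins also repress ZEB1, while ESRP proteins select exons used in epithelial cells, in genes such as FGFR2, CD44 and CTNND1. ELF3 and EHF activate genes of differentiating glandular epithelium, and KLF5 regulates growth and differentiation in prostate and gut epithelium. Loss of this set of regulators accompanies epithelial to mesenchymal transition (EMT), the shift of cells to a migratory state.

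By the intervals listed in the deposited table, whose genome build is not known, GRHL1 lay on chromosome 2 (10085341 to 10142411), GRHL2 on chromosome 8 (102504660 to 102681954) and GRHL3 on chromosome 1 (24645812 to 24681808), all on the + strand. OVOL1 lay on chromosome 11 (65554493 to 65564690, +) and OVOL2 on chromosome 20 (17937623 to 18039832, - strand). ESRP1 lay on chromosome 8 (95653302 to 95719694, +) and ESRP2 on chromosome 16 (68263014 to 68270035, -). ELF3 lay on chromosome 1 (201977073 to 201985137, +), EHF on chromosome 11 (34642640 to 34668098, +) and KLF5 on chromosome 13 (73629114 to 73636799, +). All 10 are protein-coding genes.

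TRIB1 itself measured 241 and 245 TPM in PC3 TRIB1, against 45.1 and 50.8 TPM in PC3 control, and 69.4 and 62.3 TPM in DU145 TRIB1, against 10.1 and 7.94 TPM in DU145 control. Each library held 19731 to 21335 genes of at least 1 TPM; the deposited TPM values keep no read totals, so the depth is unknown. STAT3 was at 0.127 to 0.502 TPM in PC3 and 96.9 to 143 TPM in DU145. The leukocyte markers PTPRC and CD3E were under 1 TPM in every library. The erythroid gene HBB stood at 279 to 385 TPM in all 8 libraries. The second DU145 TRIB1 library stood apart, at -61.7 on the second principal component (10.3% of variance), against 21.5 to 24.9 for the other DU145 libraries. The 7SL RNAs took 3.17% of its TPM, against 1.27% to 2.24% in the other 7 libraries. Calls and groups that did not overlap in DU145 are therefore given with and without it.

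TRIB1 in PC3 went with higher levels of most of the 10 regulators, and TRIB1 in DU145 with a lower level of ELF3. The 10 were chosen with earlier results of these data known, and GRHL3 passed the filter through PC3 TRIB1 alone. In PC3, 7 of the 10 rose (GRHL2, GRHL3, OVOL1, OVOL2, ESRP1, ELF3 and EHF) and none fell, at a Benjamini-Hochberg adjusted p below 0.05 in limma; 7.67% of all genes tested rose and 9.33% fell. Leaving out either the PC3 control 2 or the PC3 TRIB1 2 library left 4 of the 10. In DU145, 1 of the 10 fell (ELF3) and none rose, where 2.01% of all genes fell and 0.712% rose. With the series' own cutoff, a log2 change over 1 as well, 6 of the 10 rose in PC3 (2.52% of all genes) and ELF3 fell in DU145 (0.804%). The split over all genes depends on scaling: 1992 rose and 2423 fell in PC3 as deposited, against 2512 and 2022 after upper-quartile scaling, and 185 rose and 522 fell in DU145, against 265 and 360 after median-of-ratios scaling. Single libraries moved these counts too: without the DU145 TRIB1 library that stood apart, 311 rose and 273 fell in DU145, and without the other DU145 TRIB1 library 432 rose and 332 fell. The DU145 counts were 69 and 184 without either PC3 TRIB1 library, 75 and 429 without DU145 control library 1, and 83 and 513 without DU145 control library 2. In PC3, 1046 rose and 1045 fell without PC3 TRIB1 library 1, 1137 and 905 without PC3 TRIB1 library 2, and 1309 and 1694 without PC3 control library 2. Without DU145 control library 1 or 2, 1422 or 1421 rose in PC3 and 1594 or 1588 fell. The median log2 change of the 10 was 1.15 in PC3 and -0.09 in DU145, beside medians of -0.01 and -0.04 over all genes tested. Changes are differences of log2(TPM + 1), which understates the change of genes with low levels. In these bulk samples, a change in the share of cells that express a gene and a change in RNA per cell cannot be told apart.

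**Figure D1:**
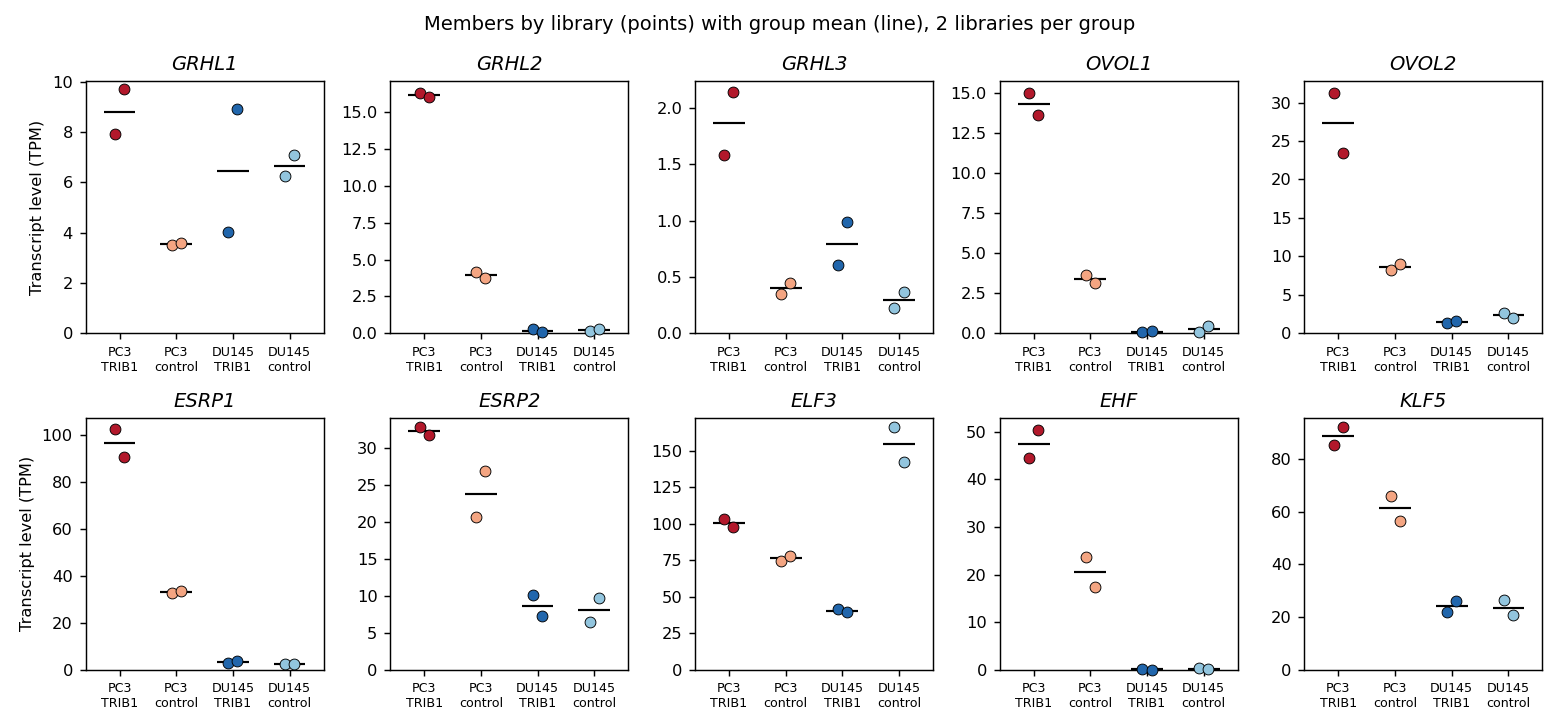
Level of each of the 10 regulators in TPM (vertical axis, a separate linear scale for each gene) in the 8 libraries. Points are libraries and short lines are group means of 2 libraries; PC3 TRIB1 lies above PC3 control for all 10 genes, and in DU145 the ELF3 points lie at 41.8 and 39.2 TPM with TRIB1, against 166 and 142 TPM in control.

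Among the grainyhead-like genes, GRHL2 (ENSG00000083307), which maintains E-cadherin and claudin expression in epithelia, measured 16.3 and 16.1 TPM in PC3 TRIB1, against 4.16 and 3.73 TPM in PC3 control. The PC3 groups lay far apart relative to their spread, and GRHL2 rose by a log2 change of 1.80 ± 0.16 (SE; limma adjusted p = 0.00278), a ratio of mean TPM of 4.10. DU145 had GRHL2 at 0.245 and 0.0635 TPM with TRIB1, against 0.143 and 0.251 TPM in control. These levels were all near 0 and overlapped, so no fold is given for DU145.

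GRHL3 (ENSG00000158055), which acts in the skin barrier, measured 1.58 and 2.14 TPM in PC3 TRIB1, against 0.345 and 0.448 TPM in PC3 control. It rose by 1.03 ± 0.23 (adjusted p = 0.0318), and all 4 levels were low. The call was lost without either PC3 control library (adjusted p = 0.0674 and 0.0634) and without PC3 TRIB1 library 2 (0.0807). In DU145, GRHL3 measured 0.601 and 0.991 TPM with TRIB1, against 0.218 and 0.365 TPM in control, with a change of 0.47 ± 0.23 (adjusted p = 0.364; 0.31 and adjusted p = 0.528 without the library that stood apart). The DU145 groups did not overlap, yet the change did not pass the test.

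GRHL1 (ENSG00000134317), a regulator of desmosomal genes in the epidermis, measured 7.92 and 9.73 TPM in PC3 TRIB1, against 3.49 and 3.57 TPM in PC3 control. The groups did not overlap, and the log2 change of 1.11 ± 0.31 had a 95% interval of 0.34 to 1.88 but did not pass the adjusted test (adjusted p = 0.0651). Leaving out either DU145 TRIB1 library, both of which enter the shared estimate of spread, gave an adjusted p of 0.0182. In DU145 TRIB1, GRHL1 measured 4.04 and 8.91 TPM, against 6.25 and 7.10 TPM in DU145 control. The higher of these TRIB1 values came from the library that stood apart; the change was -0.12 ± 0.31 with it and -0.60 without it (adjusted p = 0.919 and 0.202).

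The make-up of the grainyhead-like sum differed between the lines. GRHL2 made up 63.2% and 57.5% of the summed TPM of the 3 genes in PC3 TRIB1, against 52.1% and 48.1% in PC3 control. In DU145 it made up 5.01% and 0.638% with TRIB1, against 2.16% and 3.25% in control. GRHL1 supplied most of the rest, with 82.7% and 89.4% in DU145 TRIB1, against 94.5% and 92% in DU145 control. The sum itself was 25.8 and 27.9 TPM in PC3 TRIB1, against 8.0 and 7.74 TPM in PC3 control, and 4.88 and 9.96 TPM in DU145 TRIB1, against 6.61 and 7.72 TPM in DU145 control. GRHL1 was a main part of the sum in both control groups, at 43.6% and 46.1% in PC3 control, and GRHL2 was near 0 in DU145.

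OVOL1 (ENSG00000172818), a repressor that in mouse skin limits progenitor growth, measured 15.0 and 13.6 TPM in PC3 TRIB1, against 3.59 and 3.12 TPM in PC3 control. It rose by 1.81 ± 0.20 (adjusted p = 0.00439; 0.0621 with a pseudocount of 0.1) with no overlap. In DU145 it was at 0.0438 and 0.103 TPM with TRIB1, against 0.0778 and 0.438 TPM in control, levels too near 0 for a fold. OVOL1-AS1, listed on the opposite strand of the same interval, measured 3.6 and 2.01 TPM in PC3 TRIB1, against 1.67 and 0.264 TPM in PC3 control. Because the strand setting of the counting is not given, reads of this pair cannot be told apart.

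OVOL2 (ENSG00000125850), a repressor of ZEB1 and other EMT inducers, measured 31.3 and 23.4 TPM in PC3 TRIB1, against 8.23 and 9.0 TPM in PC3 control. It rose by 1.55 ± 0.18 (adjusted p = 0.00541), and both TRIB1 libraries lay above both controls. In DU145, OVOL2 measured 1.32 and 1.51 TPM with TRIB1, against 2.66 and 2.00 TPM in control. The DU145 groups did not overlap either, with TRIB1 lower, but the change of -0.46 ± 0.18 did not pass (adjusted p = 0.272; -0.51 and adjusted p = 0.379 without the library that stood apart). SNX5 and MGME1 overlap the listed OVOL2 interval; neither passed the PC3 test (log2 changes of 0.21 and -0.16, adjusted p = 0.118 and 0.343). SNORD17, a small nucleolar RNA listed within the interval, rose by 0.81 in PC3 (adjusted p = 0.0159). In DU145, SNORD17 measured 75.7 and 75.6 TPM with TRIB1, against 39.4 and 54.2 TPM in control. That change of 0.70 did not pass (adjusted p = 0.0705), and neither did the difference between the lines of 0.11 (adjusted p = 0.764). OVOL2 supplied the larger part of the OVOL sum in every library, and OVOL1 supplied 32.3% and 36.7% of it in PC3 TRIB1, against 30.4% and 25.8% in PC3 control.

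ESRP1 (ENSG00000104413), the main epithelial exon selector, measured 103 and 90.8 TPM in PC3 TRIB1, against 32.8 and 33.7 TPM in PC3 control. It rose by 1.51 ± 0.13 (adjusted p = 0.00228), a ratio of mean TPM of 2.91. In DU145 it measured 2.91 and 3.72 TPM with TRIB1, against 2.64 and 2.29 TPM in control. These groups did not overlap, and the change of 0.31 ± 0.13 (95% interval -0.0012 to 0.62) did not pass (adjusted p = 0.284; 0.18 and adjusted p = 0.550 without the library that stood apart).

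ESRP2 (ENSG00000103067), its paralog with overlapping exon targets, measured 32.8 and 31.8 TPM in PC3 TRIB1, against 20.7 and 26.9 TPM in PC3 control. The groups did not overlap, but the change of 0.44 ± 0.23 (95% interval -0.14 to 1.02) did not pass (adjusted p = 0.283). In DU145 it measured 10.1 and 7.26 TPM with TRIB1, against 6.48 and 9.71 TPM in control, and the groups overlapped (0.10 ± 0.23, adjusted p = 0.900). ESRP1 accounted for 75.8% and 74.1% of the ESRP sum in PC3 TRIB1, against 61.4% and 55.6% in PC3 control. In DU145 its share was 22.3% and 33.9% with TRIB1, against 29% and 19.1% in control. ESRP1 was thus the larger of the pair in the PC3 libraries and ESRP2 in the DU145 libraries. The deposited table holds gene totals, so exon choice was not measured.

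**Figure D2:**
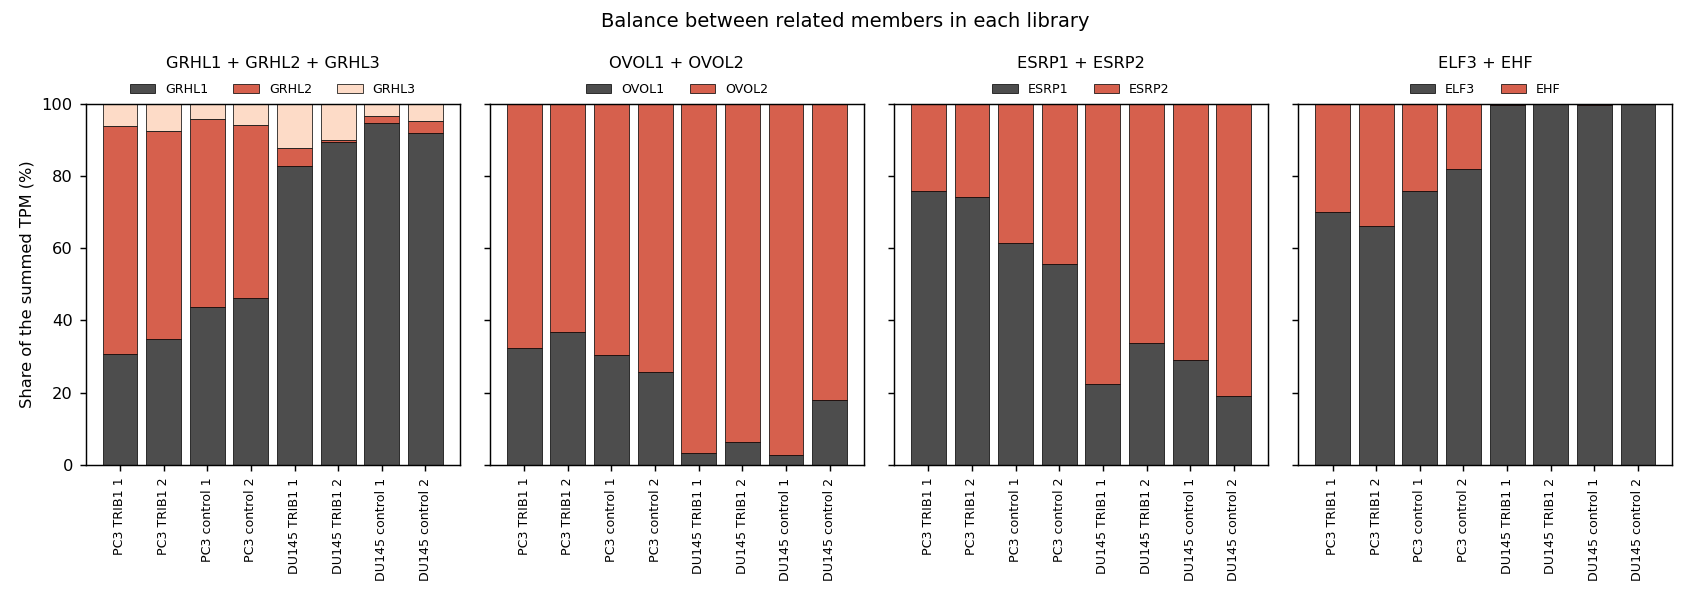
Share of each related gene in the summed TPM of its family (vertical axis, percent) for each of the 8 libraries, with 1 panel per family. GRHL2, ESRP1 and EHF take larger shares in the PC3 libraries than in the DU145 libraries; ELF3 supplies nearly all of the ELF3 and EHF sum in DU145.

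ELF3 and EHF share the ETS DNA-binding domain. ELF3 is the member that passed the test in both lines with opposite signs, EHF is its relative that stayed near 0 in DU145, and GRHL3 is the other member with the same hexamer, so the 250 bases before these starts are printed. They come from RefSeq for GRCh38.p14, each on the + strand, and 5 of the 10 members matched that table. Capitals mark CACCTG, a hexamer bound by ZEB and SNAI repressors, searched on both strands; 17.5% of 27305 promoters of the same length hold it.
ELF3 (chr1:202010337-202010586): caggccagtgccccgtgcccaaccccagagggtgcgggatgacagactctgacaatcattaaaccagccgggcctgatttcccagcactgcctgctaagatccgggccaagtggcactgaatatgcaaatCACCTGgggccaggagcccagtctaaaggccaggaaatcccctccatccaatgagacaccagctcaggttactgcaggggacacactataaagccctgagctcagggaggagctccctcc
EHF (chr11:34624007-34624256): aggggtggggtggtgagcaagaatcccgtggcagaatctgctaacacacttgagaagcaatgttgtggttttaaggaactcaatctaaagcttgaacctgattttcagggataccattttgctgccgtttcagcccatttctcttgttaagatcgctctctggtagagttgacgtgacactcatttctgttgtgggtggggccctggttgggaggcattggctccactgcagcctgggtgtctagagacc
GRHL3 (chr1:24319107-24319356): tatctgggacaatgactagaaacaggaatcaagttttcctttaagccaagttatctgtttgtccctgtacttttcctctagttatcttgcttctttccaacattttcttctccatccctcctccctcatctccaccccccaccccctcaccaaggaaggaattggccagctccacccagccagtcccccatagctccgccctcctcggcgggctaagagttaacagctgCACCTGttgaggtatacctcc
The hexamer stands at -120 to -115 before the ELF3 start and at -21 to -16 before the GRHL3 start, and the EHF window does not hold it. Neither the grainyhead motif AACNNGTT (2.97% of promoters) nor the OVOL motif CCGTTA (2.52%), also searched on both strands, is in the windows of the 5 matched members, so none of them overlaps the hexamer. Such a match describes letters, and binding was not measured.

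ELF3 (ENSG00000163435), which is induced in inflamed and differentiating epithelium, measured 103 and 98.0 TPM in PC3 TRIB1, against 74.5 and 78.0 TPM in PC3 control. It rose by 0.40 ± 0.09 (adjusted p = 0.0327), the smallest change among the 7 that passed. This call was lost in 9 of 18 other settings, among them each fit without 1 of the PC3 libraries (adjusted p = 0.0893 to 0.148) and without either DU145 TRIB1 library. In DU145, ELF3 measured 41.8 and 39.2 TPM with TRIB1, against 166 and 142 TPM in control. It fell by 1.90 on the log2 scale (SE 0.09, adjusted p = 0.00206), a control mean 3.81 times the TRIB1 mean, and kept the call in all 18 settings. Without the library that stood apart the log2 change was -1.85 (adjusted p = 0.0170). DU145 control held the highest ELF3 of the 4 groups and DU145 TRIB1 the lowest. RP11-465N4.4, listed on the opposite strand, measured 5.89 and 8.70 TPM in DU145 TRIB1, against 17.3 and 12.6 TPM in DU145 control (-0.95, adjusted p = 0.0948), and without strand its reads and those of ELF3 cannot be told apart.

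EHF (ENSG00000135373), an ETS factor of luminal prostate and other glandular epithelium, measured 44.5 and 50.5 TPM in PC3 TRIB1, against 23.7 and 17.3 TPM in PC3 control. It rose by 1.19 ± 0.20 (adjusted p = 0.0143) without overlap. The call was lost without either PC3 TRIB1 library (adjusted p = 0.0704 and 0.0945) and without PC3 control library 2 (0.0574), and with a pseudocount of 0.1 (0.157). In DU145 it was at 0.130 and 0.0256 TPM with TRIB1, against 0.390 and 0.117 TPM in control, all near 0. EHF made up 30.1% and 34.0% of the ELF3 and EHF sum in PC3 TRIB1, against 24.1% and 18.2% in PC3 control. That sum was 148 and 148 TPM in PC3 TRIB1, against 98.2 and 95.3 TPM in PC3 control, and 41.9 and 39.2 TPM in DU145 TRIB1, against 167 and 142 TPM in DU145 control. In DU145 the sum followed ELF3 alone, since EHF supplied at most 0.310% of it.

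KLF5 (ENSG00000102554), a zinc finger activator, measured 85.3 and 92.1 TPM in PC3 TRIB1, against 66.1 and 56.6 TPM in PC3 control. The groups did not overlap, but the change of 0.53 ± 0.15 (95% interval 0.16 to 0.89) did not pass (adjusted p = 0.0639). In DU145 it measured 22.0 and 26 TPM with TRIB1, against 26.4 and 20.7 TPM in control (0.03 ± 0.15, adjusted p = 0.978), and the groups overlapped. KLF5 protein is marked for degradation by the ubiquitin ligases WWP1, FBXW7 and SMURF2 and spared by the deubiquitinases BAP1 and USP3. None of these 5 genes passed the test in either line (medians of 0.02 in PC3 and -0.01 in DU145). Over all genes tested, 7.67% rose and 9.33% fell in PC3, and 0.712% rose and 2.01% fell in DU145. For the TRIB1 change in PC3 minus that in DU145, 1 of the 5 passed above 0, beside 5.36% of all genes tested. These are RNA levels, and the turnover of KLF5 protein was not measured.

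All 10 genes had both PC3 TRIB1 libraries above both PC3 control libraries, which held for 24.5% of all genes tested. In DU145 the groups did not overlap for 4 of the 10 (GRHL3, OVOL2, ESRP1 and ELF3), and for 47.3% of all genes. Ranked by change in PC3 among 25982 genes, OVOL1 stood at 302, GRHL2 at 309, OVOL2 at 499 and ESRP1 at 539 from the top. ELF3 stood at 215 from the bottom in DU145. The summed TPM of the 10 genes was 441 and 428 in PC3 TRIB1, against 238 and 232 in PC3 control. In DU145 it was 83.2 and 87.8 with TRIB1, against 211 and 185 in control, a difference that came mostly from ELF3.

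**Figure D3:**
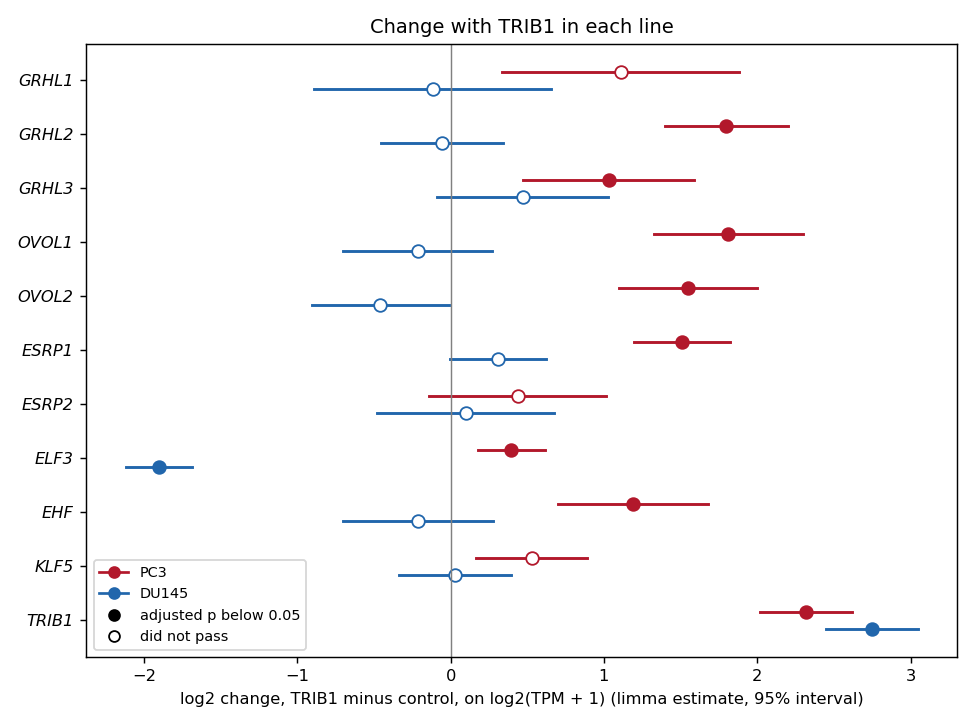
Log2 change of each of the 10 regulators, TRIB1 minus control on log2(TPM + 1), in PC3 and in DU145, with TRIB1 below them; horizontal lines are 95% intervals of the limma fit, and filled points have an adjusted p below 0.05. In PC3 the changes run from 0.40 for ELF3 to 1.81 for OVOL1, and in DU145 the value of -1.90 for ELF3 lies apart from the other 9.

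The difference between the lines was tested as the TRIB1 change in PC3 minus that in DU145. It was above 0 for 6 of the 10 genes (GRHL2, OVOL1, OVOL2, ESRP1, ELF3 and EHF) and below 0 for none, where 5.36% of all genes tested passed above 0 and 4.01% below. Over all genes, 1393 passed above 0 and 1041 below, and with 1 library left out these counts ran from 861 to 1470 and from 414 to 1446, with both lowest values without the first DU145 control library. ELF3 differed by 2.30 ± 0.12 (adjusted p = 0.00192), the highest estimate of the 10 on this scale; with a pseudocount of 0.1 the estimate for OVOL1 was higher. The difference was 2.03 ± 0.28 for OVOL1 (adjusted p = 0.0140), 2.01 ± 0.26 for OVOL2 (adjusted p = 0.0117) and 1.85 ± 0.23 for GRHL2 (adjusted p = 0.0108). OVOL1 and GRHL2 were near 0 in DU145, where the log2(TPM + 1) scale allows little change, and with a pseudocount of 0.1 their differences were larger, at 2.91 ± 0.80 and 2.31 ± 0.62, but did not pass (adjusted p = 0.0839 and 0.0789). ESRP1 differed by 1.2 ± 0.18 (adjusted p = 0.0176), and not past the threshold without the first DU145 control library (0.0631) or the first PC3 TRIB1 library (0.0654). EHF differed by 1.40 ± 0.28 (adjusted p = 0.0368), a call lost in 11 of 17 other settings. GRHL1 and GRHL3 had differences of 1.23 ± 0.44 and 0.56 ± 0.32 that did not pass (adjusted p = 0.152 and 0.343), as did KLF5 with 0.50 ± 0.21 and ESRP2 with 0.34 ± 0.33 (adjusted p = 0.208 and 0.565). Without the DU145 TRIB1 library that stood apart, the count above 0 was again 6, with GRHL1 in it (1.72, adjusted p = 0.0307) and EHF out of it (1.33, adjusted p = 0.101). The other 5 passed without it too, with differences of 2.25 for ELF3, 2.07 for OVOL1, 2.06 for OVOL2, 1.74 for GRHL2 and 1.33 for ESRP1 (adjusted p = 0.0150 to 0.0380).

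The lines also differed without added TRIB1. PC3 control was higher than DU145 control for 7 of the 10 genes and lower for 1 (ELF3), where 18.6% of all genes tested were higher and 28.4% lower. GRHL2, OVOL1 and EHF, which are among the 7, passed the filter through PC3 groups alone. The filter thus favoured a higher call in PC3 for these genes, and their calls and place in the order below carry that limit. Median-of-ratios scaling moved the median over all genes to -0.01, against -0.18 as deposited, with 6099 genes higher and 5804 lower, against 4840 and 7376. EHF differed most, by 4.09 ± 0.20 (adjusted p = 3.7e-05), then ESRP1 by 3.31 ± 0.13 (adjusted p = 1.64e-05) and GRHL2 by 2.05 ± 0.16 (adjusted p = 0.000208). OVOL1, OVOL2, ESRP2 and KLF5 were higher in PC3 control by 1.81, 1.53, 1.46 and 1.35. ELF3 was lower in PC3 control by a log2 change of -1.0 ± 0.09 (adjusted p = 0.000310). GRHL1 had a change of -0.76 ± 0.31 (adjusted p = 0.0986) and GRHL3 one of 0.11 ± 0.23 (adjusted p = 0.725). The 8 calls held in all 17 other settings, and GRHL1 also passed, lower in PC3 control, without the first or the second DU145 TRIB1 library (adjusted p = 0.0137 and 0.0142). Control values are shared between this comparison and the TRIB1 comparisons.

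In PC3 TRIB1 the highest of the 10 levels were ELF3, ESRP1 and KLF5, whose neighbours in the order overlapped between libraries. EHF, ESRP2, OVOL2, GRHL2, OVOL1, GRHL1 and GRHL3 followed, each without overlap with its neighbour. In PC3 control the order was ELF3, KLF5, ESRP1, ESRP2, EHF, OVOL2, GRHL2, GRHL1, OVOL1 and GRHL3, with overlap between ESRP2 and EHF and between GRHL1 and OVOL1. Both DU145 groups began with ELF3 and KLF5, followed by ESRP2 and GRHL1, which overlapped, then ESRP1 and OVOL2. GRHL2, OVOL1 and EHF were at the bottom in DU145, each under 1 TPM.

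Over the 8 libraries, the levels of GRHL2, OVOL1, OVOL2, ESRP1, ESRP2, EHF and KLF5 varied together, with Pearson r of 0.928 to 0.997 on log2(TPM + 1) over their 21 pairs. These values describe 4 groups of 2 libraries, and the pairs share the gap between the lines. ELF3 had r of -0.16 to 0.29 with the other 9 members. GRHL3 had r of 0.540 to 0.699 with the genes that varied together, and 0.67 with GRHL1. GRHL1 had r of -0.05 to 0.22 with the genes that varied together. Among 16093 other genes of at least 5 TPM in a group, the most like GRHL2 were DAPP1, SERPINB2 and DNAJC15 (r of 0.9988 to 0.9997). OVOL1 was most like DPH5, LRRC8B and SLC25A38 (0.998 to 0.999), and OVOL2 most like IL4I1, IL1RN and CD24P4 (0.995). ESRP1 was most like SDCBP2, LAD1 and WDR72 (0.998), ESRP2 most like HIST1H2BG, PUS1 and HIST1H2AD (0.992 to 0.994) and EHF most like DKK1, COX7B and HEPHL1 (0.999). KLF5 was most like CPEB4 and SERPINB5, among others (0.996 to 0.998), GRHL3 most like NAV3, STRIP2 and AC092168.4 (0.963 to 0.973) and ELF3 most like DDT, PLSCR1 and MX1 (0.973 to 0.976). GRHL1 was most like DYRK2 (0.940) and the 7SL pseudogenes RN7SL540P and RN7SL345P (0.926 and 0.917), which are of the RNA class that was highest in the library that stood apart; the part of that library in this likeness was not tested.

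The nearest tested protein-coding genes, 2 on each side of each member by the listed intervals, were counted as well. Of these 40 genes, 3 rose and 4 fell in PC3 (median -0.09), shares near the 7.67% and 9.33% over all genes tested, and none passed in DU145 (median -0.13).

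Other genes of the same pathways were counted in lists chosen with earlier results of these data known. Over all genes tested, 7.67% rose and 9.33% fell in PC3, and 0.712% rose and 2.01% fell in DU145. Of 14 epithelial genes described as bound by GRHL2 in epithelial cells, 11 rose in PC3 and none fell (median 1.25); 0 rose and 1 fell in DU145 (median -0.14). Among them the adhesion molecule EPCAM rose in PC3 by 1.78 (adjusted p = 0.00110) and the desmosome protein DSP by 1.18 (adjusted p = 0.00126). The PC3 count was 6 with PC3 TRIB1 library 1 left out and 7 with library 2 left out. The epithelial markers KRT8, KRT18, KRT19, EPCAM, CDH1 and CLDN7, of which EPCAM and CDH1 are also on that list, summed to 2899 and 2939 TPM in PC3 TRIB1, against 1505 to 1557 TPM in PC3 control. In PC3, 5 of these 6 rose; in DU145, CLDN7 fell by 0.53 (adjusted p = 0.0238; not without DU145 control 2, DU145 TRIB1 2 or either PC3 TRIB1 library) and the sum ran from 1285 to 1403 TPM with TRIB1, against 1399 to 1438 TPM in control.

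The EMT transcription factors, many of which repress epithelial genes, mostly did not pass the test. Among all genes tested, 7.67% rose and 9.33% fell in PC3, and 0.712% rose and 2.01% fell in DU145. Of 8 tested, 1 fell in PC3 (TWIST2, by 0.64, adjusted p = 0.0497) and none rose, with a median of -0.45, and none passed in DU145 (median -0.24). TWIST2 was near 1 TPM or below in all PC3 libraries, and its call was lost in each fit without 1 library except that without PC3 control library 2. ZEB1, the reciprocal partner of GRHL2, measured 5.97 and 4.91 TPM in PC3 TRIB1, against 10.6 and 7.15 TPM in PC3 control (-0.60, adjusted p = 0.0928), and SNAI2 in DU145 had a change of -0.62 (adjusted p = 0.0605). PRRX1 and FOXC2 were too low to test. Of 6 fibroblast markers, 4 were tested, with a median change of 0.62 in PC3 and 0.04 in DU145. In PC3 the collagen gene COL1A1 fell by 0.71 (adjusted p = 0.0114) and the proteoglycan gene LUM rose by 1.23 (adjusted p = 0.0315), and none of the 4 passed in DU145. Neither direction had a call in PC3 without PC3 TRIB1 library 2, and none rose with a pseudocount of 0.1. The sum of the 6, most of it COL1A1, was 41.5 to 45.5 TPM in PC3 TRIB1, against 58.6 to 71.0 TPM in PC3 control, and 53.0 to 55.6 TPM in DU145 TRIB1, against 64.5 to 68.9 TPM in DU145 control. COL1A2 and COL3A1 were under 1 TPM in every library. The part of these markers in the changes of the 10 regulators was not tested.

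Of 12 genes with exons chosen by ESRP proteins, 2 rose and 1 fell in total level in PC3, and none passed in DU145. The shares over all genes tested in PC3 were 7.67% higher and 9.33% lower. NUMB, a Notch inhibitor, fell by 0.66 (adjusted p = 0.0113). With 1 library left out, 1 to 3 of the 12 rose and 0 to 2 fell, 0 without either PC3 TRIB1 library. Of 10 other splicing factors tied to EMT, 2 rose and 4 fell in PC3; the 4 falls were lost without either PC3 TRIB1 library or either DU145 control library. RBM47, an RNA-binding protein that favours epithelial exons, measured 22.8 and 23.9 TPM in PC3 TRIB1, against 6.15 and 8.73 TPM in PC3 control. It rose by 1.54 ± 0.15 (adjusted p = 0.00348).

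Relatives of the regulators were counted in the same way, beside 7.67% of all genes tested that rose and 9.33% that fell in PC3. The DU145 shares were 0.712% and 2.01%. Of the 3 other CP2 family genes, relatives of the grainyhead factors, TFCP2 and UBP1 rose in PC3 by 0.61 and 0.46 (adjusted p = 0.00801 and 0.0375); 1 rose without any 1 of the PC3 libraries. Of 4 other ETS genes tested (SPDEF, ELF1, ELF2 and ELF4), ELF1 rose by 0.55 and SPDEF fell by 0.62 in PC3 (adjusted p = 0.0387 and 0.0409). Except without PC3 control library 1, fits with a library left out did not keep both calls. In DU145, ELF4 fell by 0.89 (adjusted p = 0.0106), and 1 of these genes fell there in each fit without 1 library. Of 13 other KLF genes tested, 2 rose and 1 fell in PC3 and none passed in DU145; KLF3 rose by 0.63 and KLF13 fell by 0.61 in PC3 (adjusted p = 0.0163 and 0.0105). With 1 library left out, 0 to 2 of the 13 rose and 0 to 2 fell.

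Of 9 other epithelial transcription factors tested, 2 rose and 1 fell in PC3, and none rose and 3 fell in DU145. The shares over all genes tested were 7.67% and 9.33% in PC3, and 0.712% and 2.01% in DU145. FOXA2, a pioneer factor of endoderm, measured 5.08 and 5.66 TPM in PC3 TRIB1, against 37.0 and 44.5 TPM in PC3 control, and fell by 2.71 (adjusted p = 0.000959). In DU145, FOXA2, SOX9 and TFAP2A fell by 1.03, 0.78 and 0.88 (adjusted p = 0.0356, 0.0301 and 0.0367), and none of the 3 held without any one of the DU145 libraries or of the PC3 TRIB1 libraries. In PC3, 1 factor fell and at least 1 rose in each fit without 1 library.

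**Figure D4:**
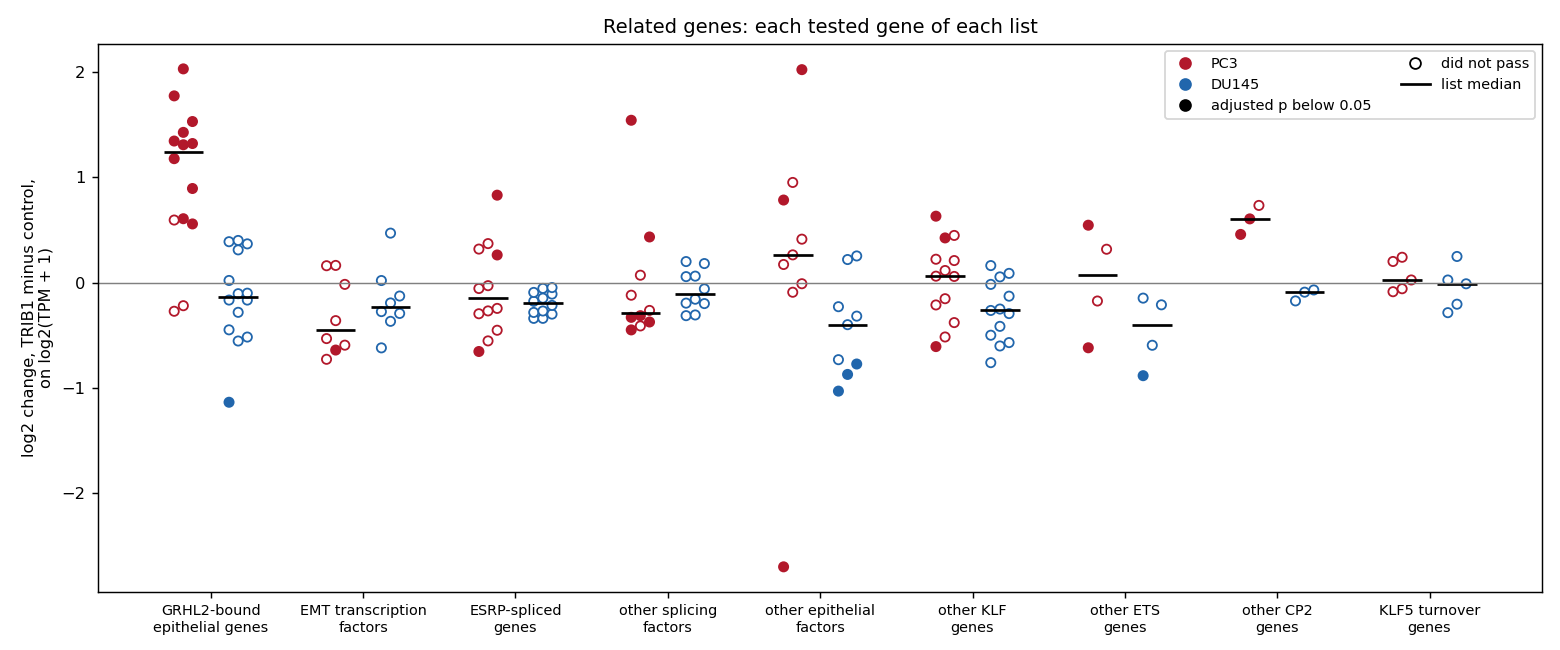
Log2 changes, TRIB1 minus control on log2(TPM + 1), of the tested genes in each related list, in PC3 and in DU145. Points are genes, filled where the adjusted p was below 0.05, and short lines are list medians; the median of the GRHL2-bound genes lies at 1.25 in PC3 and at -0.14 in DU145, and FOXA2 is the point at -2.71 in PC3.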

How the data were processed

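RNA was sequenced from PC3 and DU145 cells given a TRIB1 or an empty lentivirus, with 8 libraries in 4 groups of 2 taken from the sample titles. The authors deposited 1 table of TPM values for 57905 genes, and each column sums to the same total. Per the submitters' processing notes, the build was hg38 and the tools included TopHat2 2.0.14 and HTSeq, with DESeq and edgeR. Not given in the sources used here are the annotation, the gene lengths, the strand setting and the tool behind the TPM values. The listed intervals matched the start in GENCODE on GRCh38 for 365 of 52338 shared genes, so the build of these intervals is not known. TPM keeps no read totals, so no counting interval was computed.

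The 25982 genes whose mean reached 1 TPM in some group were tested with limma 3.58.1 (R 4.3.3, mean-variance trend) on log2(TPM + 1). All 8 libraries entered 1 fit of 4 group means with 4 residual degrees of freedom, and p-values were Benjamini-Hochberg adjusted over all genes tested. The count test foreseen for raw counts did not apply. The procedure was tested on simulated data. Named genes are the 10 regulators, TRIB1, the 2 genes with the smallest p of each list in each comparison, and the 3 genes most like each regulator; other genes were chosen after their values were seen. A few genes that the rule names are not reported here. The regulators and lists were chosen with earlier results of these data known. Other pseudocounts, filters, scalings, a fit of each line alone, a replicate block and leaving out each library were also tried.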

Additional observations from a re-analysis of the deposited data

Results flagged for a closer look

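For 6 of the 10 regulators the TRIB1 change differed between PC3 and DU145, tested as the interaction in the limma fit over all 8 libraries. All 6 differences were above 0, as were those of 5.36% of all genes tested. The count was 3 with a pseudocount of 0.1, where GRHL2, OVOL1 and EHF did not pass (limma adjusted p = 0.0789, 0.0839 and 0.118). With the replicate block the count was 1. GRHL2, OVOL1 and EHF passed the filter through PC3 groups alone. EHF lost its call in 11 of 17 other settings. The TRIB1 change in PC3 minus that in DU145 was 2.3 for ELF3, 2.03 for OVOL1, 2.01 for OVOL2, 1.85 for GRHL2, 1.4 for EHF and 1.2 for ESRP1 on log2(TPM + 1). ELF3 alone had a change past the threshold in both lines, higher with TRIB1 in PC3 and lower with TRIB1 in DU145. Its call in PC3 was lost in 9 of 18 other settings, and its call in DU145 was kept in all 18. In DU145 the levels of GRHL2, OVOL1 and EHF were under 1 TPM in every library of both groups, so a fall there could hardly be measured.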

How the results depend on the processing

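Of the single-gene values of the 10 regulators under other settings, the direction and the side of the threshold held in 151 in PC3, 168 in DU145, 149 for the difference between the lines and 167 between the controls. A call was lost in 20 values and gained in 8 in PC3. For the difference between the lines, a call was lost in 19 and gained in 1. In DU145 the direction reversed in 7, and between the controls a call was gained in 2. GRHL2, OVOL2 and ESRP1 in PC3 and ELF3 in DU145 kept their calls in all 18 settings; OVOL1 in PC3 lost its call with a pseudocount of 0.1 (adjusted p = 0.0621), as did EHF (0.157). GRHL1 passed in PC3 in 5 settings and KLF5 in 3. The count of regulators that rose in PC3 ran from 4 to 7 with 1 library left out, and the count that differed between the lines from 4 to 6, with 3 at a pseudocount of 0.1; the count lower in PC3 control than in DU145 control ran from 1 to 2. GRHL2-bound genes that rose in PC3 numbered 6 to 12, and those whose change was higher in PC3 than in DU145 6 to 9, against 10 with all libraries. Below the threshold in DU145, leaving out 1 library gave log2 changes of -0.60 to 0.37 for GRHL1, -0.17 to 0.058 for GRHL2, -0.16 to 0.36 for ESRP2 and -0.13 to 0.20 for KLF5; the reversed values were 0.37 for GRHL1 (DU145 TRIB1 library 1 left out), 0.01 and 0.058 for GRHL2, -0.16 and -0.12 for ESRP2, and -0.13 and -0.09 for KLF5.

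The labels do not say whether same-numbered libraries were paired. Their deviations correlated at -0.01 in PC3 and -0.04 in DU145 over 25982 genes, and the DU145 value includes the library that stood apart. Whether same-numbered libraries shared a culture, infection or day was not tested. With the replicate block, 4 regulators rose in PC3, 1 differed between the lines, and 1 of the GRHL2-bound genes differed. The block leaves 2 residual degrees of freedom. Over all genes, the block gave 784 higher and 951 lower in PC3 and 1 and 10 in DU145. Fitting each line alone gave 1018 and 1138 in PC3 and 9 and 43 in DU145, and protein-coding genes alone gave 471 and 892 in DU145. For the difference between the lines, the block gave 55 above and 19 below 0, and protein-coding genes alone 1983 and 1786. The cause of these changes was not tested, beyond the fewer libraries, genes or degrees of freedom that each setting leaves. Depth is unknown, so the precision of the levels near 0 cannot be stated.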
